A study of Mus musculus with 36 samples.

Results

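Cytochrome P450 families 1 to 4 hold most of the enzymes that oxidise drugs, dietary chemicals and fatty acids. The genes described here are all those whose annotated symbol is Cyp1, Cyp2, Cyp3 or Cyp4 followed directly by a letter. They were 43 of the 15964 genes measured on the arrays. The symbol alone decided membership, although earlier results of these data were known when the families were chosen. Each gene is read from its brightest probe set, taken from array set A first, then B, then C, which puts 30 genes on set A, 10 on set B and 3 on set C. By family there were 3 genes of Cyp1, 26 of Cyp2, 4 of Cyp3 and 10 of Cyp4.

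RNA came from whole intestinal segments of male Hsd:ICR(CD-1) mice, an outbred stock, aged 8 weeks and fed chow 2018S from Harlan Teklad without restriction. The 4 groups profiled were the duodenum (the first 2 to 3 cm after the stomach), the jejunum, the ileum and the undivided colon, each as 3 pools of 10 mice, on 3 array sets per pool, for 36 arrays in all. No treatment, genotype or time point separates the groups, so the segment is the factor compared. Since whole wall was taken, a lower value cannot separate fewer epithelial cells from less RNA in each cell.

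Cytochrome P450 enzymes are haem proteins of the endoplasmic reticulum that insert oxygen into their substrates with electrons supplied by P450 reductase and cytochrome b5. In the gut they lie mainly in enterocytes and act on swallowed compounds before these reach the liver, together with the conjugating enzymes and efflux pumps. Many family 2 and 3 genes are induced by foreign chemicals through the receptors CAR (Nr1i3) and PXR (Nr1i2), family 1 genes through the aryl hydrocarbon receptor, and Cyp4a genes through PPARalpha, and family 4 enzymes mostly hydroxylate fatty acids and eicosanoids.

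The tissue labels were set against marker genes. Summed enterocyte markers (8 genes) spanned 47205 to 63552 intensity units in the duodenum, 59346 to 78153 in the jejunum, 35537 to 46036 in the ileum and 13748 to 15243 in the colon. Of 4 colonocyte markers 3 were called higher in the colon than in the small intestine, while Slc26a3 was at 9.0 to 10.6 there. Exocrine pancreas transcripts (7 genes) summed to 95555 to 96359 in the duodenum and to 663.5 to 2500.1 in the other segments. Summed leukocyte markers (8 genes) were at 9343 to 11380 in the ileum and 2088 to 5450 elsewhere, and all 7 smooth muscle markers were called higher in the colon than in the small intestine. The 4 pools jejunum 2, jejunum 3, ileum 1 and ileum 3 stood apart from the other 8 by their 18S ribosomal RNA control, at 200.6 to 1541 units on set A against 5772 to 20058. On set C, which carries 3 of the 43 P450 genes, the array titled duodenum 3 has jejunum as its source name and was kept by its title.

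Values are intensities on a linear scale that the authors brought to a common mean per array, and differences are on the scale of log2(intensity + 16), with a call at an adjusted p below 0.05 in limma. Of the 43 P450 genes 19 (44.2%) were called for any difference among the 4 segments, against 13.7% of all genes, and on set A alone 12 of 30 (40%) were called against 18.6% of all genes there. The called genes were 1 of 3 in Cyp1, 8 of 26 in Cyp2, 3 of 4 in Cyp3 and 7 of 10 in Cyp4. Among the 19 called genes the highest mean lay in the jejunum for 10, in the duodenum for 5 and in the colon for 4, and the lowest mean lay in the colon for 13, in the ileum for 4 and in the duodenum for 2. Shares over all called genes are not given here, so these counts by segment have no background to be read against. All 19 were above the median intensity of their array set in their highest segment. The map of all 43 genes by pool shows these groups of genes in order.

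**Figure D1:**
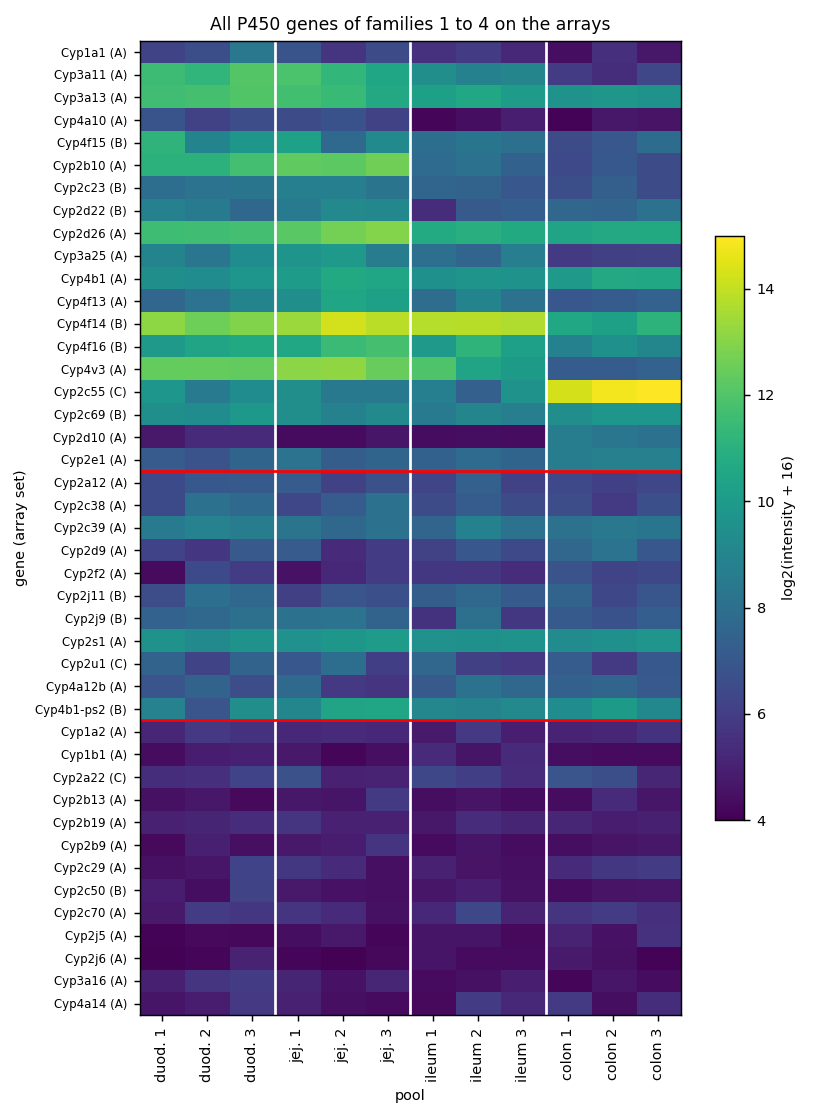
All 43 P450 genes of families 1 to 4 (vertical axis, array set in brackets) in every pool (horizontal axis, 3 per segment, white lines between segments), coloured by log2(intensity + 16). The upper red line closes the 19 genes called for any difference among segments, of which Cyp2c55 has its 3 brightest cells in the colon and Cyp2b10 and Cyp3a11 are bright in duodenum and jejunum. The lower red line separates 11 genes not called but above the array set median in their highest segment from 13 genes below it in every segment mean.

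Cyp2b10, the classical target of CAR, and Cyp3a11, a main drug and steroid oxidase of mouse liver and gut, were both far lower in the ileum and colon. The windows of 300 bases around their transcription starts are printed, with that of Cyp3a25. They belong to 3 of the 6 genes called lower in the colon than in the ileum. They are from RefSeq on GRCm38.p6, run 5′ to 3′ on the gene's strand from 250 bases before the start, and show in capitals each match, on either strand, to AGGTCA or AGTTCA (the elements that nuclear receptors read), GTTAAT (hepatocyte nuclear factor 1), TTTATG (caudal factors), TATAAA (the TATA box) and TGCGTG (the aryl hydrocarbon receptor).
Cyp2b10, chr7:25897408-25897707, plus strand: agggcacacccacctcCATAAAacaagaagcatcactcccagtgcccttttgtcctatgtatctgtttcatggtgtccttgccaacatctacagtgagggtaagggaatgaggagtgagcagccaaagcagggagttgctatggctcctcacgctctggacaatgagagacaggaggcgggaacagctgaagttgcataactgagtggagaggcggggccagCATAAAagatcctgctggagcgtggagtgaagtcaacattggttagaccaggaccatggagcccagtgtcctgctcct
Cyp3a11, chr5:145879805-145880104, minus strand: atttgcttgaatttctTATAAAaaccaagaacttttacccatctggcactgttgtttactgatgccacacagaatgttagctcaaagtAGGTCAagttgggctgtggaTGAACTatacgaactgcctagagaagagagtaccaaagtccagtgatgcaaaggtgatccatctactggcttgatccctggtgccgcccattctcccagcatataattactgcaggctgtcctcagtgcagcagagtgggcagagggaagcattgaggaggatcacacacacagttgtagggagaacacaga
Cyp3a25, chr5:146009569-146009868, minus strand: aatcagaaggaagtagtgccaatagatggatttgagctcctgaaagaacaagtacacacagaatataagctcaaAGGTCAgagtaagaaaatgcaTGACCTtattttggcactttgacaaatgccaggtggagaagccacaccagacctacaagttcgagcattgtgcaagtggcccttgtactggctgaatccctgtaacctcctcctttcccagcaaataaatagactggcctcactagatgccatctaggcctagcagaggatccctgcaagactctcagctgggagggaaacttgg
The Cyp3a11 window holds AGGTCA at -162, AGTTCA at -142 (as its complement TGAACT) and TATAAA at -234, counted from the start to the first base of the match. AGGTCA occurs at -176 and, as TGACCT, at -155 in the Cyp3a25 window, the first of 2 listed for that gene. Cyp2b10 holds TTTATG, as CATAAA, at -234 and -28. Of the windows not printed, that of Cyp4v3, also called lower in the colon than in the ileum, holds AGTTCA at -160, as TGAACT. Those of Cyp4f14, the first of 4 listed, and of Cyp4f16, both called lower as well, hold no match. Of all 32851 windows in the table, 16.3% hold AGGTCA, 14% AGTTCA, 7.1% GTTAAT, 11.9% TTTATG, 13.6% TATAAA and 8.47% TGCGTG. Of 36 P450 genes with a window, 10 hold AGGTCA, 5 AGTTCA, 2 GTTAAT, 4 TTTATG, 16 TATAAA and 0 TGCGTG. A match means only that these letters stand in this window. The complement CATAAA of TTTATG differs from TATAAA by its first letter, and no matches overlap in the printed windows. After global alignment the Cyp3a11 window was 52.9% identical to that of Cyp3a25, 53.7% to that of Cyp3a13 and 74.8% to that of Cyp3a16.

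Cyp2b10 had 2137.5, 2111 and 3299.5 units in the duodenal pools, 5031, 4853.5 and 6211 in the jejunal, 212, 271.5 and 154.5 in the ileal and 69.6, 114 and 79.5 in the colonic pools. The 4 segments did not overlap, the jejunum being highest and the colon lowest. The ileum was lower than the jejunum by a log2 difference of -4.58 ± 0.23 (SE, adjusted p = 8.11e-08) and lower than the duodenum by -3.47 ± 0.23 (adjusted p = 2.23e-07). The colon was lower than the ileum by -1.13 ± 0.23 (adjusted p = 0.0103), and the jejunum was higher than the duodenum by 1.11 ± 0.23 (adjusted p = 0.0322).

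Cyp3a11 had 2922, 2409.9 and 4305 units in the duodenal pools, 3746.5, 2487.5 and 1385 in the jejunal, 674, 442 and 501.5 in the ileal and 45.8, 27.8 and 64.4 in the colonic pools. Duodenum and jejunum overlapped, every ileal pool lay below both, and every colonic pool lay below the ileum and below the set A median of 66.3. The ileum differed from the jejunum by -2.11 ± 0.32 (SE, adjusted p = 0.00207) and from the duodenum by -2.52 ± 0.32 (adjusted p = 0.000304), and the colon from the ileum by -3.18 ± 0.32 (adjusted p = 1.47e-05). A probe set annotated to both Cyp3a16 and Cyp3a11 averaged 3024 units in the duodenum, 2046 in the jejunum, 367 in the ileum and 56.8 in the colon. The set of Cyp3a16 alone, a gene known as the fetal form of the subfamily, stayed at 2.2 to 44.2 units in all 12 pools.

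Cyp3a13, an intestinal member of the drug-oxidising subfamily, was lower in the ileum and colon by smaller steps. It had 3170.1, 3394 and 4070.3 units in the duodenal pools, 3228.5, 2823 and 1569 in the jejunal, 1208, 1495 and 1032 in the ileal and 766, 893 and 769 in the colonic pools. Jejunal pool 3 lay near the ileal pools, and the colon lay below every small-intestinal pool. The ileum was -1.51 ± 0.23 below the duodenum (SE, adjusted p = 0.00156) and the colon -1.42 ± 0.19 below the small-intestinal mean (adjusted p = 0.000114).

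Cyp3a25 had 481, 307.5 and 633 units in the duodenal pools, 802, 986 and 379.5 in the jejunal, 241, 178 and 405 in the ileal and 42.7, 51.3 and 54.7 in the colonic pools. Small-intestinal segments overlapped, and no colonic pool reached them. The colon differed from the ileum by -2.08 ± 0.35 (SE, adjusted p = 0.00226). Ileum minus jejunum was -1.32 ± 0.35 and not called (adjusted p = 0.0599). All 4 Cyp3a genes lie on chromosome 5.

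**Figure D2:**
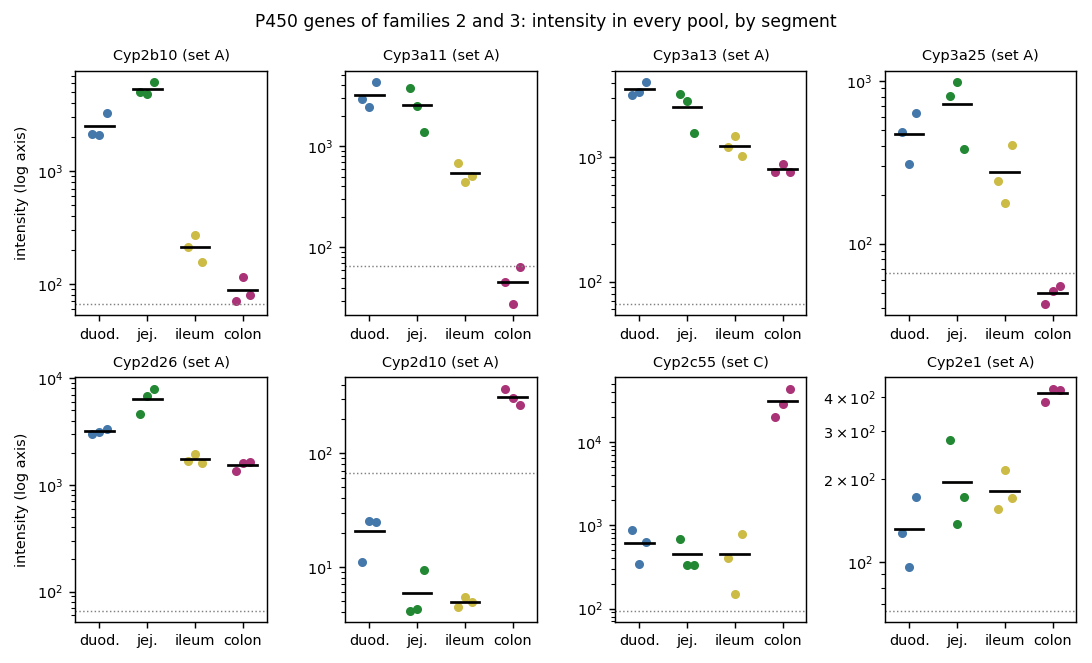
Intensity (log axis) of 8 family 2 and 3 genes in the 3 pools of each segment. Points are pools, bars are means of 3 and the dotted line is the median of the gene's array set. Cyp2b10 and the Cyp3a genes step down from duodenum and jejunum to colon, whereas Cyp2c55, Cyp2d10 and Cyp2e1 have all 3 colonic pools above every small-intestinal pool.

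Other family 2 genes were higher in the colon. Cyp2c55, whose product hydroxylates arachidonic and linoleic acid, Cyp2d10 of the drug-oxidising Cyp2d subfamily, and Cyp2e1, the oxidase of ethanol and small solvents, were called higher there than in the small intestine, as was Cyp2j5 at a dim level, and Cyp2c69 was called higher there than in the ileum. The windows of Cyp2c55 and of Cyp2d10 are printed with that of Cyp2d26, because Cyp2d10 and Cyp2d26 lie on the same chromosome, share a subfamily and had opposite patterns.
Cyp2c55, chr19:39006769-39007068, plus strand: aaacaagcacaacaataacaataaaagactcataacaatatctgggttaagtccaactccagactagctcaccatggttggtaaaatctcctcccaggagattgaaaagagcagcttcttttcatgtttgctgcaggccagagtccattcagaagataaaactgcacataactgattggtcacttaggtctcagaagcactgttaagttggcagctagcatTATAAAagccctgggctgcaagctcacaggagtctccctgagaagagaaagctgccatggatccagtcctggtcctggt
Cyp2d10, chr15:82407145-82407444, minus strand: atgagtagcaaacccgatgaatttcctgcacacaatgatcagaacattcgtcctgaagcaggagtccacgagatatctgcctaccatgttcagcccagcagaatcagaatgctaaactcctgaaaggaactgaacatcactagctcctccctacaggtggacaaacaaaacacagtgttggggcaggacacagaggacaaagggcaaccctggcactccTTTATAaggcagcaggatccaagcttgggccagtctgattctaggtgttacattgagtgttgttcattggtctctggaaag
Cyp2d26, chr15:82794196-82794495, minus strand: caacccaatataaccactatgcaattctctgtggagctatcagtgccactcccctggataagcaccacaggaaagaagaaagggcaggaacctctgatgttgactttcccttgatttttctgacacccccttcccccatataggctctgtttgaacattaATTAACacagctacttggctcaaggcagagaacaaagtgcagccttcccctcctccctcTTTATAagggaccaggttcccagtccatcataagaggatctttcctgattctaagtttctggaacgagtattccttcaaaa
A TATAAA match lies at -29 in the Cyp2c55 window, and at -31 (as TTTATA) in both Cyp2d windows. Cyp2d26 also has GTTAAT, as ATTAAC, at -90. The other P450 window with GTTAAT is that of Cyp2c69, at -221, a gene called higher in the colon than in the ileum. The aligned windows of Cyp2d10 and Cyp2d26 were 50.3% identical, and those of Cyp2d10 and Cyp2d9 were 82.9% identical.

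Cyp2c55 had 20013, 29068 and 44012 units in the colonic pools, while the 9 small-intestinal pools ran between 148 and 876 with a median of 411. Its small-intestinal segments overlapped, with means of 617 ± 265 in the duodenum, 453 ± 202 in the jejunum and 448 ± 320.3 in the ileum (SD, n = 3 each). The colon was higher than the ileum by 6.27 ± 0.53 (SE, adjusted p = 5.78e-06) and higher than the small-intestinal mean by 5.99 ± 0.43 (adjusted p = 6.47e-07). Its only probe set ends in f_at, a type that can bind related transcripts. That set is on set C, where the array titled duodenum 3 has jejunum as its source name, and both calls held without that array.

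Cyp2d10 had 371, 305 and 269 units in the colonic pools and 4.1 to 25.3 in the 9 small-intestinal pools, all of these below the set median. A second probe set of the gene gave 259.5, 202 and 210.3 units in the colon and 3.0 to 13.1 in the small intestine. The colon exceeded the small-intestinal mean by 3.70 ± 0.24 (SE, adjusted p = 4.85e-08) on the first set and by 3.37 ± 0.21 (adjusted p = 3.5e-08) on the second. Because the small-intestinal values are so low, the size depends on the offset, with 5.09 at an offset of 1 and 2.35 at an offset of 64.

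Cyp2e1 had 384, 430.0 and 424 units in the colonic pools, against 96.1 to 279 in the small-intestinal pools with a median of 171. No small-intestinal pool reached the colon. The colon was higher than the small-intestinal mean by 1.25 ± 0.21 (SE, adjusted p = 0.00104) and than the ileum by 1.13 ± 0.26 (adjusted p = 0.0216). The second of these calls was lost with the 18S class as a block, at 0.74 (adjusted p = 0.169), and without ileum 1, ileum 3 or any 1 of the 3 colonic pools (1.04 to 1.18, adjusted p from 0.0635 to 0.0914).

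The Cyp2d genes on chromosome 15 did not move as a block. Cyp2d26 had 3018.5, 3151 and 3326 units in the duodenal pools, 4585, 6736 and 7977 in the jejunal, 1672.5, 1943 and 1615 in the ileal and 1339, 1596 and 1627 in the colonic pools. Every jejunal pool was above the duodenum, every duodenal pool above the ileum, and ileum and colon overlapped. Ileum minus jejunum was -1.84 ± 0.18 (SE, adjusted p = 5.26e-05), and colon minus the small-intestinal mean was -1.10 ± 0.15 (adjusted p = 0.00018).

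Cyp2d22, regarded as the mouse counterpart of human CYP2D6, had 442, 347 and 187 units in the duodenal pools, 353, 556 and 552 in the jejunal, 26.5, 123.5 and 138.5 in the ileal and 181, 176 and 256 in the colonic pools. The ileum was lowest and did not overlap any other segment. Its ileum minus jejunum difference was -2.34 ± 0.44 (SE, adjusted p = 0.00856). Cyp2d9 averaged 189 ± 81.8 units in the colon, 71.2 ± 42.3 in the duodenum, 65.6 ± 55.0 in the jejunum and 78.6 ± 27.3 in the ileum (SD, n = 3 each) and was not called in any comparison (adjusted p = 0.0604 for colon minus small intestine). A probe set shared by Cyp2d12 and Cyp2d9 averaged 1300.1, 2694, 632 and 1002 units from duodenum to colon, so the probe sets annotated to Cyp2d9 disagree.

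The Cyp2c genes, all 8 on chromosome 19, were likewise divided. Cyp2c23, whose rat counterpart is a renal arachidonic acid epoxygenase, averaged 267 ± 31.3 units in the duodenum, 369.7 ± 72.9 in the jejunum, 152 ± 36.0 in the ileum and 102 ± 37.9 in the colon (SD, n = 3 each). Colon minus small intestine was -1.19 ± 0.25 (SE, adjusted p = 0.00615), while a second probe set of the gene on set C gave -0.13 (adjusted p = 0.865), and without colon 3 the first set gave -1.04 (adjusted p = 0.0598). The second set was not called for any difference either (adjusted p = 0.626). Cyp2c69 averaged 799 ± 102 units in the colon and 416 ± 73.4 in the ileum (SD, n = 3 each), a difference of 0.92 ± 0.23 (SE, adjusted p = 0.0353). A set shared by Cyp2c69, Cyp2c67, Cyp2c68 and Cyp2c40 averaged 224 units in the colon and 109 in the ileum, a difference of 0.93 ± 0.23 (SE, adjusted p = 0.0366). Both of these sets end in f_at and can bind related transcripts, so their likeness is not particular to Cyp2c69. The call of Cyp2c69 was lost in 9 of 25 alternatives, among them with the 18S class as a block, at 0.66 (adjusted p = 0.217), and without ileum 1, ileum 3 or any 1 colonic pool (0.82 to 1.03, adjusted p from 0.0563 to 0.147). Cyp2c38 at 42.4 to 258 units and Cyp2c39 at 177 to 448 units were not called. On their own sets Cyp2c29, Cyp2c50 and Cyp2c70, enzymes known mainly from liver, did not exceed 66.8 units in any pool. A set shared by Cyp2c50 and Cyp2c37 ran from 14.9 to 109 units, with means of 79.8 in the ileum and 79.9 in the colon, and was not called.

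In family 4, the fatty acid and eicosanoid hydroxylases, 7 of 10 genes were called, and 6 of the 7 had their lowest mean in the colon. For the lowest segment the share over all called genes is again not given. Cyp4v3, the mouse counterpart of the fatty acid hydroxylase CYP4V2 that is mutated in Bietti crystalline dystrophy, had 5397, 5378 and 5202 units in the duodenal pools, 8679.7, 9325 and 5501 in the jejunal, 4013, 1369.6 and 1009.8 in the ileal and 132, 129.9 and 161 in the colonic pools. The segments did not overlap, although ileal pool 1 was much nearer to the duodenum than the other ileal pools were. The colon was lower than the ileum by -3.52 ± 0.36 (SE, adjusted p = 1.57e-05) and than the small-intestinal mean by -4.74 ± 0.29 (adjusted p = 3.06e-08). Ileum minus jejunum was -2.10 ± 0.36 (adjusted p = 0.005).

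Cyp4f14, an omega-hydroxylase of leukotriene B4 and vitamin E, had 9061.5, 6152 and 7826 units in the duodenal pools, 10335, 19260.1 and 15017 in the jejunal, 13882, 14475 and 13353 in the ileal and 1531, 1213 and 2181 in the colonic pools. The ileal pools lay within the jejunal range, every duodenal pool lay below both, and the colon lay below all other pools. The colon was lower than the ileum by -3.11 ± 0.25 (SE, adjusted p = 6.7e-07), whereas ileum minus jejunum was -0.05 with a 95% interval of -0.58 to 0.47 (adjusted p = 0.967), and jejunum minus duodenum was 0.92 ± 0.25 and not called (adjusted p = 0.108).

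Cyp4f13 and Cyp4f16, of the same subfamily, had their highest means in the jejunum. Cyp4f13 had 179.5, 275 and 486 units in the duodenal pools, 690.2, 1397 and 1189 in the jejunal, 231, 489.5 and 264 in the ileal and 112, 133 and 158 in the colonic pools. The jejunum was above every other pool and the colon below every other pool. Its differences were 1.80 ± 0.34 for jejunum minus duodenum (SE, adjusted p = 0.0198), -1.70 ± 0.34 for ileum minus jejunum (adjusted p = 0.0154) and -1.67 ± 0.28 for colon minus small intestine (adjusted p = 0.00118). A second probe set of the gene gave 1.23 for jejunum minus duodenum (adjusted p = 0.0656) and -0.73 for ileum minus jejunum (adjusted p = 0.256), neither called, and -1.01 for colon minus small intestine (adjusted p = 0.0135), and on it jejunal pool 1 at 153 units lay within the ileal range of 139.8 to 188.

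Cyp4f16 averaged 1307 ± 343 units in the duodenum, 2617 ± 987 in the jejunum, 1466 ± 696 in the ileum and 561 ± 145 in the colon (SD, n = 3 each), and the colon was below the small-intestinal mean by -1.54 ± 0.28 (SE, adjusted p = 0.00168). Cyp4f15 varied widely among pools of a segment, with 2273, 478.5 and 876 units in the duodenal pools, 1256.5, 202 and 577 in the jejunal, 234.5, 294 and 249 in the ileal and 76.0, 110.2 and 220.2 in the colonic. Only jejunal pool 2 reached the colonic range. Colon minus small intestine was -1.93 ± 0.47 (SE, adjusted p = 0.0163), and it was not called without colon 1 (-1.62, adjusted p = 0.122) or colon 2 (-1.85, adjusted p = 0.0802).

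Cyp4a10, the PPARalpha-inducible fatty acid omega-hydroxylase, was dim throughout. It had 101, 56.2 and 79.7 units in the duodenal pools, 76.4, 93.6 and 56.2 in the jejunal, 1.7, 5.3 and 14.1 in the ileal and 1.1, 9.9 and 7.9 in the colonic pools. Duodenum and jejunum did not overlap ileum and colon, whose values were all far below the set median of 66.3. Ileum minus jejunum was -2.00 ± 0.33 (SE, adjusted p = 0.00335), but this size depends on the offset, at -3.56 with an offset of 1 and -0.97 with 64. Cyp4b1, which activates foreign compounds in mouse lung, averaged 729 ± 116 units in the duodenum, 1362 ± 287 in the jejunum, 769 ± 53.4 in the ileum and 1337 ± 352 in the colon (SD, n = 3 each). It was called for any difference (adjusted p = 0.0135) but in no pair of segments, and the pseudogene Cyp4b1-ps2, whose set ran from 105 to 1378 units, was not called. A set shared by Cyp4b1 and Cyp4b1-ps2 averaged 272, 319, 269 and 294.5 units from duodenum to colon. It was not called for any difference (adjusted p = 0.87), so the sets annotated to Cyp4b1 disagree.

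**Figure D3:**
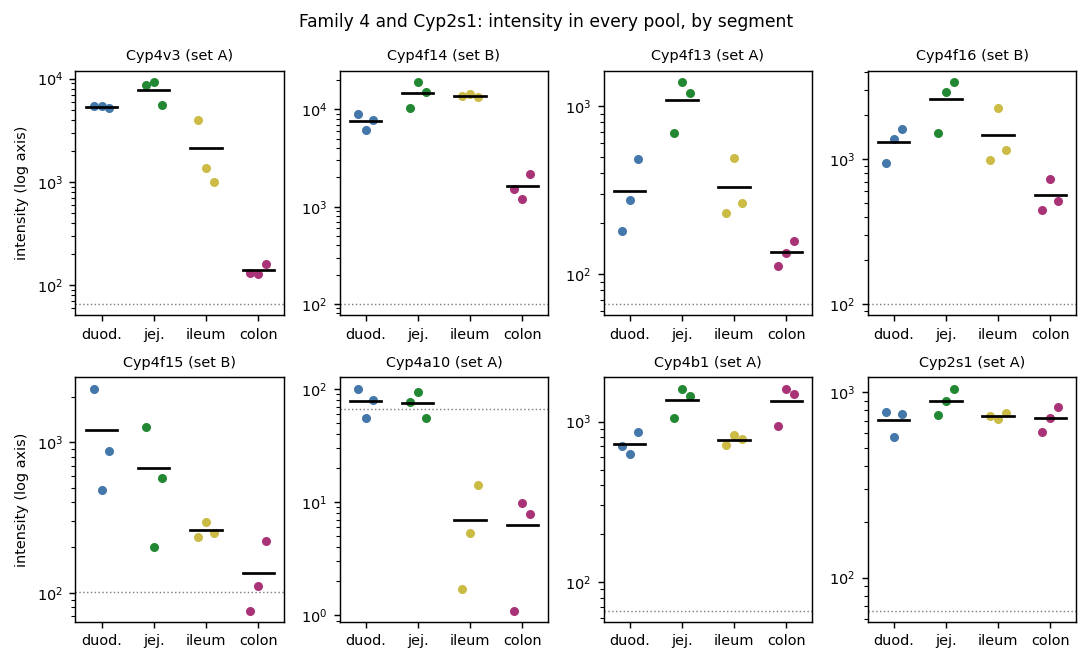
Intensity (log axis) of the 7 called family 4 genes and of Cyp2s1 in the 3 pools of each segment. Points are pools, bars are means of 3 and the dotted line is the array set median. Cyp4v3 falls in ileum and colon, Cyp4f14 in the colon, and Cyp2s1 stays between 577 and 1047 in all 12 pools.

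Cyp1a1, the hydrocarbon-metabolising target of the aryl hydrocarbon receptor, was low. It had 61.4, 84.4 and 326 units in the duodenal pools, 101, 34.1 and 77.8 in the jejunal, 31.8, 44.0 and 20.9 in the ileal and 5.2, 30.4 and 10.4 in the colonic pools. Duodenal pool 3 was the only one far above the set median. Colon minus small intestine was -1.46 ± 0.42 (SE, adjusted p = 0.0481), whereas a second probe set of the gene gave 0.27 (adjusted p = 0.724), and the call was lost in 12 of 23 alternatives, among them leaving out colon 1 (-1.22, adjusted p = 0.24). Cyp1a2 at 11.9 to 40.9 units and Cyp1b1 at 2.2 to 23.5 units were not called.

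Among the genes without a called difference, Cyp2s1, a P450 known from epithelia, was well above its array set median in every pool. It had 782, 577 and 764 units in the duodenal pools, 749.9, 898 and 1047 in the jejunal, 744, 719.9 and 776 in the ileal and 611, 725 and 834 in the colonic pools. The segments overlapped, and colon minus small intestine was -0.11 with a 95% interval of -0.41 to 0.19. Above the median in their highest segment without a call were 10 other genes, namely Cyp2a12, Cyp2c38, Cyp2c39, Cyp2d9, Cyp2f2, Cyp2j9, Cyp2j11, Cyp2u1, Cyp4a12b and Cyp4b1-ps2. The remaining 13 were below their set median in every segment mean and may be at background there. They were Cyp1a2, Cyp1b1, Cyp2a22, Cyp2b9, Cyp2b13, Cyp2b19, Cyp2c29, Cyp2c50, Cyp2c70, Cyp2j5, Cyp2j6, Cyp3a16 and Cyp4a14. Of these Cyp2j5, an arachidonic acid epoxygenase of mouse kidney, was called higher in the colon than in the small intestine at 7.5 to 31.5 against 1.3 to 10.8 units (0.68 ± 0.20 SE, adjusted p = 0.049), ranges that overlap.

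Jejunum against duodenum asks how the proximal gut is divided. Here 3 P450 genes were called higher in the jejunum (6.98%, against 0.639% of all genes), Cyp2b10, Cyp2d26 at 0.98 ± 0.18 (SE, adjusted p = 0.0167) and Cyp4f13. In limma 0 were called lower (0.858% of all genes), with 3 lower at an unadjusted p below 0.05, and the median difference over the 43 genes was -0.11 against -0.05 over all genes. All 3 calls were lost with the 18S class as a block (adjusted p from 0.074 to 0.141) and without duodenum 1, duodenum 2, jejunum 2 or jejunum 3 (adjusted p from 0.0674 to 0.171). The 2 jejunal pools with low 18S signal cannot be set against a duodenal pool of that class, since none exists. All 7 exocrine pancreas markers were called lower in the jejunum (median difference -8.26), and 4 of 6 gastric and Brunner gland markers were (median -3.12), with summed levels of 750 to 1121 units in the jejunum and 50316 to 70947 in the duodenum. Their part in the P450 differences was not tested.

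Ileum against jejunum asks how the distal small intestine differs from its middle. In the ileum 9 P450 genes were called lower (20.9%, against 2.02% of all genes), Cyp2b10, Cyp2c23, Cyp2d22, Cyp2d26, Cyp3a11, Cyp3a13, Cyp4a10, Cyp4f13 and Cyp4v3. In limma 0 were called higher (2.46% of all genes), with 2 at an unadjusted p below 0.05, and the median difference was -0.43 for the 43 genes and 0.08 for all genes. Within the samples of high 18S signal, which leave ileum 2 and jejunum 1, the values were -4.13 for Cyp2b10 (adjusted p = 0.00392), -3.04 for Cyp3a11 (adjusted p = 0.0404) and -2.65 for Cyp4v3 (adjusted p = 0.00307), and the other 6 genes were not called (-0.48 to -2.12, adjusted p from 0.0835 to 0.906). Cyp2c23 at -1.20 ± 0.31 (SE, adjusted p = 0.0484) lost its call without any pool but colon 2 (adjusted p from 0.0557 to 0.212), and its second probe set gave -0.60 (adjusted p = 0.427). Cyp3a13 at -0.97 ± 0.23 (adjusted p = 0.0338) lost its call without jejunum 1, jejunum 2, ileum 1, ileum 3 or colon 1 (adjusted p from 0.0515 to 0.161), and Cyp4f13 without jejunum 2, jejunum 3, ileum 1 or ileum 3 (adjusted p from 0.0687 to 0.0805).

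Marker values for the same pools stand beside these differences. Vil1, a structural protein of the enterocyte brush border, had 5608, 5452 and 5110.2 units in the ileal pools against 5009, 6384 and 6003 in the jejunal pools, a difference of -0.10 ± 0.15 (SE, adjusted p = 0.872). Of the 8 enterocyte markers, Vil1 among them, 3 were called lower and 1 higher in the ileum than in the jejunum. Their sum was lower in the ileum, at 35537 to 46036 against 59346 to 78153 in the jejunum. The 8 leukocyte markers summed to 9343 to 11380 in the ileum and 5120 to 5450 in the jejunum. The ratio of the 3′ to the 5′ actin control on set A was 1.14 to 1.20 in the ileum and 1.28 to 1.55 in the jejunum. The part of enterocyte content, of leukocyte content and of RNA quality in the P450 differences was not tested.

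Ileum against duodenum sets the ends of the small intestine side by side and shares its ileal pools with the comparison above. In the ileum 6 P450 genes were called lower (14%, against 1.55% of all genes), Cyp2b10, Cyp2d26, Cyp3a11, Cyp3a13, Cyp4a10 and Cyp4v3, and in limma 0 were called higher (1.43% of all genes), with 1 at an unadjusted p below 0.05. The median difference was -0.34 against 0.04 over all genes. All 7 exocrine pancreas markers (median -8.33) and 4 of 6 gastric and Brunner gland markers (median -3.64) were called lower in the ileum as well, and their part in the P450 differences was not tested. Cyp2d26 at -0.86 ± 0.18 (SE, adjusted p = 0.0236) was not called without any 1 duodenal pool, ileum 1 or ileum 3 (adjusted p from 0.0571 to 0.121). Cyp4v3 at -1.58 ± 0.36 (adjusted p = 0.0345) was not called without any 1 duodenal pool, ileum 2, ileum 3, colon 1 or colon 2 (adjusted p from 0.051 to 0.174).

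Colon against the small intestine had more P450 calls than any other pair compared. It takes in the pools of every segment, and it also had the most calls over all genes. In the colon 13 P450 genes were called lower than in the small-intestinal mean (30.2%, against 4.96% of all genes), and 4 higher, Cyp2c55, Cyp2d10, Cyp2e1 and Cyp2j5 (9.3%, against 6.92%). The 13 included Cyp1a1, all 3 called Cyp3a genes, Cyp2b10, Cyp2c23, Cyp2d26 and 6 of the family 4 genes. The median difference was -0.17 for the 43 genes and 0.05 for all genes. Against the ileum alone, 6 were called lower in the colon (14%, against 2.74% of all genes), Cyp2b10, Cyp3a11, Cyp3a25, Cyp4f14, Cyp4f16 and Cyp4v3, and 4 higher (9.3%, against 2.49%), Cyp2c55, Cyp2c69, Cyp2d10 and Cyp2e1.

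The call of Cyp4f16 between colon and ileum, -1.29 ± 0.34 (SE, adjusted p = 0.0491), was lost without any of 8 pools, among them ileum 2 (-0.93, adjusted p = 0.223) and colon 1 (-1.14, adjusted p = 0.193). That of Cyp2b10 was lost without ileum 2 (-0.95, adjusted p = 0.0537) or colon 1 (adjusted p = 0.0619). Vil1 was lower in the colon as well, at 1843, 1926 and 2159 units against 3944.5 to 6384 in the small intestine, a difference of -1.37 ± 0.12 (SE, adjusted p = 1.67e-06), and the 7 smooth muscle markers summed to 24102 to 28124 in the colon and 4052 to 10034 in the small intestine. Of the 8 enterocyte markers, Vil1 among them, 6 were called lower in the colon than in the small intestine, with a median difference of -3.01. The same difference was -4.74 for Cyp4v3, -4.73 ± 0.26 for Cyp3a11 (SE, adjusted p = 8.55e-09) and -3.81 ± 0.19 for Cyp2b10 (adjusted p = 1.91e-09). For all other P450 genes called lower it was smaller in size than the marker median, from -2.84 for Cyp4f14 to -1.10 for Cyp2d26. The part of wall composition in the colonic differences was not tested.

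**Figure D4:**
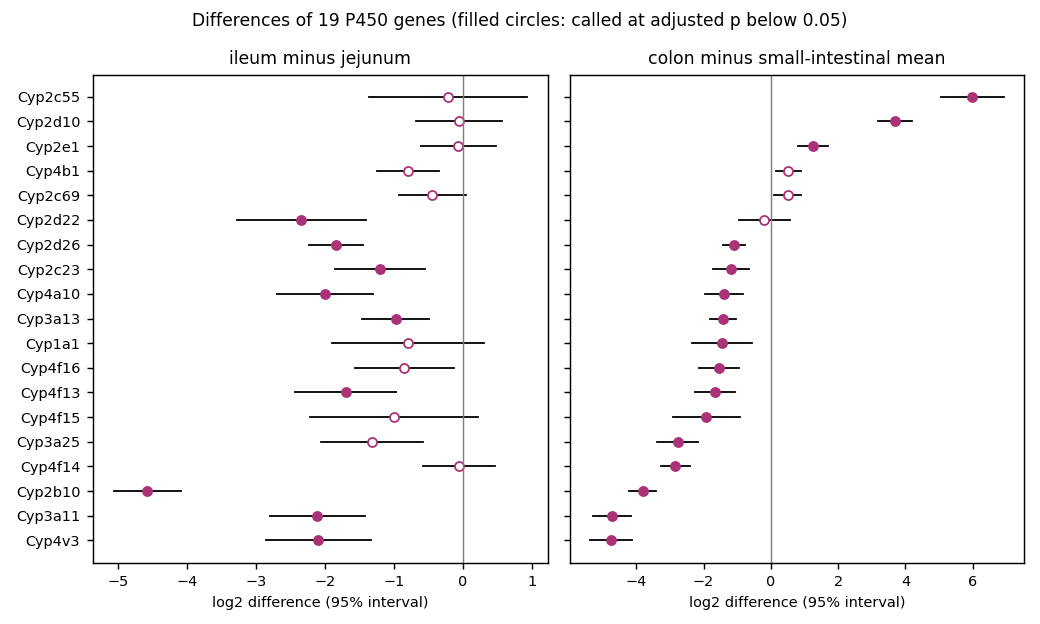
Log2 differences with 95% intervals (horizontal axis) of the 19 called P450 genes (vertical axis) for ileum minus jejunum (left) and colon minus the small-intestinal mean (right). Filled circles are called at an adjusted p below 0.05. Cyp2b10 is at -4.58 on the left, and on the right Cyp4v3 at -4.74 and Cyp2c55 at 5.99 are the ends of the range.

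Hepatocyte markers were set beside these values because many P450 genes are liver genes. The 10 hepatocyte markers summed to 5359 to 6354 units in the duodenum, 2199 to 3611 in the jejunum, 2760 to 3063 in the ileum and 313 to 417 in the colon. Of the 10 genes 1 (Tat) was called higher and 1 (Cps1) lower in the colon than in the small intestine. Most of the sum in the small intestine was Cps1, a urea cycle enzyme that enterocytes also make, at 5715, 2683, 2757 and 79.1 units from duodenum to colon. Alb was at 11.6 to 62.9 units and Fga, Fgb and Fgg at 0.6 to 19.3 in all 12 pools, all below the set median.

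The partners of P450 enzymes were measured for 8 of 9 listed redox and haem genes, with Por not analysed here. Cyb5r3, the reductase of cytochrome b5, had 924, 885 and 804 units in the ileal pools and 588, 559.8 and 599.6 in the colonic pools, against 2628, 2887.5 and 2877 in the jejunal and 3169, 2742 and 3753 in the duodenal pools. Ileum and colon lay below both proximal segments without overlap, and ileum minus duodenum was -1.86 ± 0.14 (SE, adjusted p = 1.27e-06), though another probe set of the gene gave 0.40 (adjusted p = 0.895). Cyb5a, cytochrome b5 itself, was lower in the colon than in the small intestine by -1.21 ± 0.13 (SE, adjusted p = 1.46e-05), but another of its probe sets gave -0.39 (adjusted p = 0.706). Cyb5b, its mitochondrial form, was the third called gene, lower in the jejunum than in the duodenum by -0.97 ± 0.20 (SE, adjusted p = 0.0327). That call was lost in 12 of 25 alternatives, among them another probe set (-0.73, adjusted p = 0.819), centring each array (-0.80, adjusted p = 0.122) and the 18S class as a block (-0.93, adjusted p = 0.162). Alas1, the first enzyme of haem synthesis, averaged 1614, 2313, 1593.5 and 1516 units from duodenum to colon and was not called.

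Of 12 receptors that control P450 genes 4 were called. Nr1i3 (CAR) had 125, 254 and 154 units in the ileal pools, against 414, 331 and 562.5 in the jejunal, 344, 513 and 541 in the duodenal and 191, 263 and 219 in the colonic pools. The ileum overlapped the colon and lay below both proximal segments, by -1.34 ± 0.26 against the duodenum (SE, adjusted p = 0.0128) and by -1.25 ± 0.26 against the jejunum (adjusted p = 0.0197). Each call was lost in 6 of 25 alternatives, among them the 8 pools of high 18S signal (-0.81 against the duodenum and -0.67 against the jejunum). Nr1i2 (PXR) had 170.3, 208 and 202 units in the ileal pools and 139, 119.9 and 137 in the colonic pools, against 150.0 to 212 in the other 6, and was not called (adjusted p = 0.338 for any difference). Hnf4a was higher in the ileum than in the jejunum by 1.41 ± 0.31 (SE, adjusted p = 0.022), Ppara lower by -0.94 ± 0.21 (adjusted p = 0.0259), and Hnf4g, a factor of intestinal epithelium, lower in the colon than in the ileum by -1.31 ± 0.26 (adjusted p = 0.00935). Another probe set of Ppara gave 0.76 for ileum minus jejunum (adjusted p = 0.57), another of Hnf4g gave -0.83 for colon minus ileum (adjusted p = 0.533), and Hnf4a lost its call in 9 of 25 alternatives. Ahr, at 7.1 to 48.6 units, stayed below the set median.

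**Figure D5:**
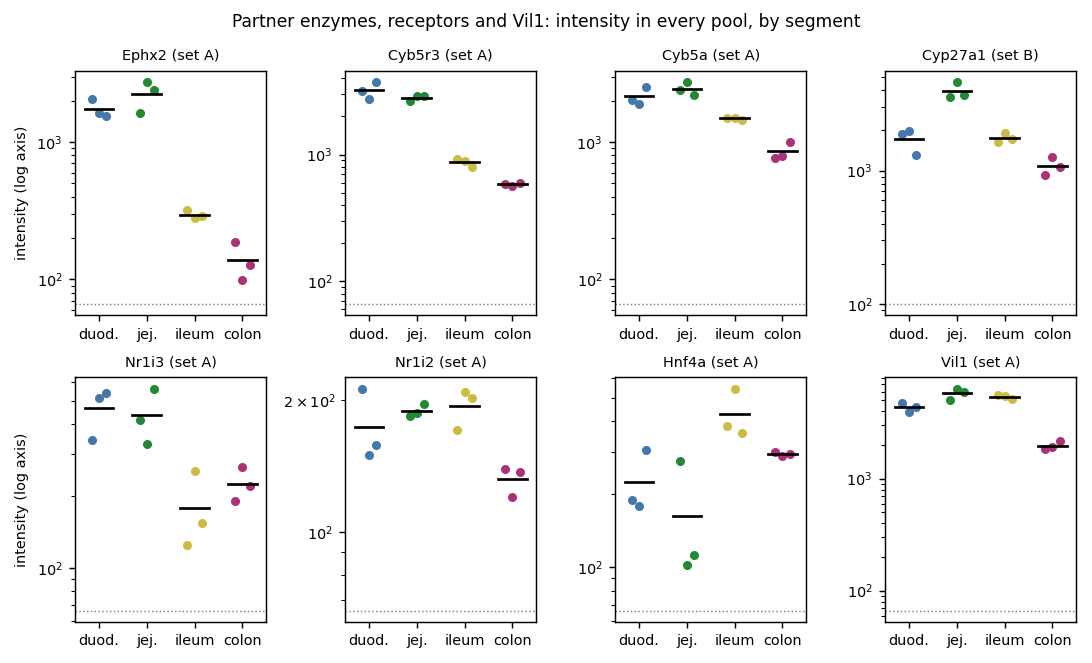
Intensity (log axis) of P450 partner genes, receptors and Vil1 in the 3 pools of each segment. Points are pools, bars are means of 3 and the dotted line is the array set median. Ephx2 and Cyb5r3 are low in ileum and colon, Nr1i3 is lowest in the ileum, and Vil1 is lowest in the colon.

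Among 9 of 10 listed epoxide hydrolases and eicosanoid enzymes, Ptgs1 not being analysed here, Ephx1, Ephx2 and Ltc4s were called for any difference and Ptgis in 1 comparison. Ephx2, the soluble hydrolase of fatty acid epoxides, had 319.6, 279.5 and 288 units in the ileal pools and 187, 98.3 and 127 in the colonic pools, against 1638, 2755.5 and 2385 in the jejunal and 2069.8, 1643 and 1545 in the duodenal pools. Ileum and colon overlapped neither each other nor the proximal segments, and ileum minus jejunum was -2.84 ± 0.22 (SE, adjusted p = 4.53e-06). Ephx1, the microsomal hydrolase, was lower in the ileum than in the duodenum by -2.49 ± 0.46 (SE, adjusted p = 0.00814). Ltc4s, leukotriene C4 synthase, was lower in the ileum than in the jejunum by -1.64 ± 0.21 (adjusted p = 0.000629), but another of its probe sets gave 0.0024 (adjusted p = 0.998). Ptgis, prostacyclin synthase, was higher in the colon than in the small intestine by 1.12 (adjusted p = 0.0329), a call lost in 12 of 23 alternatives, 7 of which left out 1 pool (0.59 to 1.64 over all 23).

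Of 15 measured P450 genes of other families, with Cyp19a1 and Cyp26b1 not analysed here, 3 were called for any difference, Cyp27a1, Cyp46a1 and Cyp51. Cyp51 (adjusted p = 0.0481) lost this call in 18 of 24 alternatives and Cyp46a1 (adjusted p = 0.0323) in 11 of 23. Cyp27a1, the mitochondrial sterol hydroxylase of bile acid synthesis, had 3581, 4627 and 3654 units in the jejunal pools against 1889, 1983 and 1311 in the duodenal pools, a difference of 1.20 ± 0.20 (SE, adjusted p = 0.00511), though another of its probe sets gave -0.27 (adjusted p = 0.849). Cyp46a1, a cholesterol hydroxylase known from brain, had 18.6, 17.6 and 19.8 units in the colonic pools against 82.7, 86.2 and 93.6 in the ileal pools, all below the set C median of 94.4 (-1.58 ± 0.33 SE, adjusted p = 0.015, lost in 6 of 24 alternatives). Cyp7a1, Cyp8b1, Cyp24a1, Cyp26a1 and Cyp27b1 were at 1.8 to 51.1 units and not called.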

How the data were processed

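Total RNA of 12 pools (4 segments, 3 pools each) was measured on 3 array sets, and the authors' deposited tables hold intensity values on a linear scale with no value below 0. The trimmed mean without the highest and lowest 2% of each array is nearly the same on all arrays of a set, so the authors scaled the intensities before they deposited them. The sources used here do not name the software or background correction and hold no detection calls, so low intensities may be background. Precision is limited by having 3 arrays per segment and set. Nothing in the labels says that pools with the same number share mice, and p-values measure the spread among pools.

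From these values, log2(intensity + 16) was fitted in limma 3.58.1 (R 4.3.3) with 1 mean per segment and an intensity trend, each array set on its own, after 198 control probe sets were left out. P-values were adjusted by Benjamini-Hochberg over all 36701 probe sets, and the fit was tested on simulated data. Probe sets were named from the platform annotation, which pairs 29131 with 1 gene, 724 with several and 6846 with none. The P450 genes have 48 probe sets of their own. Another 7 are annotated to several genes and were not used to represent any of them. Of the 43 sets used, 6 end in f_at, 1 in r_at and 1 in s_at, types that can bind related transcripts, so close paralogs may add to each other's values. The f_at sets are those of Cyp2a22, Cyp2c38, Cyp2c55, Cyp2c69, Cyp4a10 and Cyp4b1. Cyp3a16 has the r_at set and Cyp2d10 the s_at set.

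The P450 genes and the gene lists were chosen with earlier results of these data known. Genes named with values are those called for any difference and above the array set median (66.3 for A, 100.4 for B, 94.4 for C) in their highest segment, with Cyp2b10, Cyp2c55 and Cyp3a11 in any case, and list genes called in at least 1 comparison. Other genes of the 43 and the lists named in the text were chosen after their values were seen. Alternatives were offsets of 1 and 64, centring, quantile normalization, a filter on low values, no trend, fewer arrays, other probe sets, blocks by replicate number and by 18S class, the 8 pools of high 18S signal, and leaving out each pool.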

Additional observations from a re-analysis of the deposited data

How the results depend on the processing

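Of 63 calls of named P450 genes, 38 held under every alternative that gave a value, and 1367 of 1534 values kept direction and call, 166 lost the call and 1 reversed. The 3 calls of jejunum minus duodenum became 0 without the intensity trend (9 at an unadjusted p below 0.05 in limma), 0 with the 18S class as a block (9 unadjusted), 0 in the pools of high 18S signal (7 unadjusted) and 1 with only the arrays of both segments. Leaving out 1 pool gave 0 to 5 calls there, with 0 without duodenum 1, duodenum 2, jejunum 2 or jejunum 3 (9 to 13 unadjusted) and 5 without jejunum 1. The 9 calls of ileum minus jejunum became 3 in the pools of high 18S signal, where each of these segments keeps 1 pool that is assumed to vary like the others. In the other comparisons the counts ran from 4 to 7 for ileum minus duodenum, 7 to 11 for colon minus ileum, 14 to 17 for colon minus small intestine and 14 to 20 for any difference. The cause of these changes was not tested.

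Reading another probe set of the gene reversed Cyp1a1 in colon minus small intestine (0.27) and, among the list genes, Ltc4s (-0.023) and Cyp27a1 (-0.27) in jejunum minus duodenum, Cyb5r3 (0.50), Ppara (0.76) and Ltc4s (0.0024) in ileum minus jejunum, Cyb5r3 (0.40) in ileum minus duodenum, Cyb5a (0.025) in colon minus ileum and Ltc4s (0.033) in colon minus small intestine. The cause was not tested. Of 41 calls of list genes 5 held under every alternative. Deviations of pools with the same number correlated between -0.356 and 0.361 over 54 pairs of segments and sets. These correlations had both signs. With 3 pools per segment they cannot decide whether pools with the same number share mice. With the replicate block 3, 9, 6, 11, 15 and 17 P450 genes were called in jejunum minus duodenum, ileum minus jejunum, ileum minus duodenum, colon minus ileum, colon minus small intestine and any difference. The median difference over all probe sets was -0.06 as deposited and 0.07 with arrays centred in jejunum minus duodenum, 0.06 and -0.11 in ileum minus jejunum, and 0.04 and -0.07 in colon minus small intestine, so P450 differences of that size have no settled direction. Genes near or below the array set median, such as Cyp1a1, Cyp2j5 and Cyp4a10, are limited by the unknown background.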
